A study of Homo sapiens and Mus musculus with 74 samples.

Results

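Disome-seq of mouse kidney was examined in 6 of the 74 samples of the series, 3 libraries from WT mice and 3 from Rpl41 KO mice, and the genotypes were compared on disome counts alone. A disome is a pair of stacked ribosomes, formed where a trailing ribosome runs into a slow or stalled one, and the RNase-resistant fragment it leaves is longer than that of a single ribosome. Stalled ribosomes and their collisions are sensed by quality control factors that split them off the mRNA, and the number of disome reads on a gene depends both on how many ribosomes it carries and on where they queue. Rpl41 encodes the smallest protein of the ribosome, which sits in a bridge between its subunits.

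The KO mice are of the C57BL/6J strain and carry a CRISPR-Cas9 deletion of the whole Rpl41 coding sequence, made in zygotes and so carried by every cell type. They were compared with mice labelled WT, and no other allele or treatment is given for either genotype. The disome-seq kidneys came from male mice. Their age is not given in the sources used here, and the Ribo-seq kidneys were from 10-week-old males. Fragments of 50 to 80 nt were selected for these libraries. The labels number the libraries of a genotype as replicates 1 to 3 without saying that each is a separate mouse, so p-values measure the spread between libraries, and whether a kidney also gave a Ribo-seq or RNA-seq library is not stated.

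Counts summed over all transcripts lay between 1187636 and 3018963 per library. Each coding gene was represented by its transcript for the longest protein in GENCODE M21. On these transcripts libraries held 277276 to 724365 reads and 7773 of 22484 coding genes had enough reads to be tested. WT replicate 3 and KO replicate 3 were the shallowest. Pearson's r of log2 CPM across these genes was 0.912 to 0.955 between WT libraries, 0.925 to 0.935 between KO libraries and 0.885 to 0.944 across genotypes. Kap, an androgen-regulated protein of the proximal tubule, and Gpx3, the glutathione peroxidase secreted by the tubule, were among the 10 genes with the most disome reads per kilobase of coding sequence, at 42370 and 6338 CPM per kb. None of 26 exocrine pancreas markers in the table and none of 9 adrenal markers had enough reads to be tested. The pancreas markers summed to 240, 39.1 and 81.4 CPM in WT and 21.5, 17.2 and 10.8 CPM in KO.

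The knockout was read first from Rpl41 itself, which lies on the minus strand of chromosome 10 (GRCm38, chr10:128548114-128549305). The coding sequence of its 25-codon form spans 3 exons between 128548387 and 128548960. It is printed because, at 78 bases with its stop codon, it is within the size range of the fragments selected, and because 17 of its 25 codons encode lysine or arginine (capitals).
Rpl41 coding sequence, 5′ to 3′: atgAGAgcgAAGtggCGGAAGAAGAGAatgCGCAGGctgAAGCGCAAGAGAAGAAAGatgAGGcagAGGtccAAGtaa
WT libraries 1 to 3 held 154, 130 and 71 disome reads on Rpl41, or 217, 182 and 266 reads scaled to TMM-adjusted library size (CPM). KO libraries 1 to 3 held 2, 0 and 1 reads. No KO library reached the floor of 3 reads, so the disome level was at least 27.1-fold lower in KO, with the floor applied to each library (edgeR's quasi-likelihood test, Benjamini-Hochberg adjusted p = 5.75e-10). The longest annotated form, with 46 residues, and the 3 coding forms with 25 residues had identical counts.

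Processed copies of Rpl41 elsewhere in the genome hold the same bases. Gm10736 on chromosome 13 (111593534 to 111593611) and Gm10180 on chromosome 9 (25101404 to 25101481) match the 78 bases above with 0 differences, and Gm3699 on chromosome 10 (43456427 to 43456501) matches over its 75 bases with 0 differences. Multimapping reads were allowed, and these copies carried 131, 129 and 60 reads in WT replicate 1 against 2, 2 and 1 in KO replicate 1. The reads on the copies therefore cannot be told apart from those of Rpl41 in WT. No KO library had over 2 reads on any of the 3, and whether the copies are intact in these mice was not tested. When noncoding genes entered the fit, 22 of 1737 (1.27%) were lower in KO at an adjusted p under 0.05 (edgeR). These were the 3 copies, the lincRNA Gm10076, which shares Rpl41 sequence, and 18 annotations of small nucleolar RNAs, many of which repeat the same sequence.

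Beyond Rpl41, few single genes differed. Of 7773 genes tested, 7 (0.0901%) passed an adjusted p of 0.05, 4 of them higher in KO (0.0515%) and 3 lower (0.0386%). At an unadjusted p under 0.05 there were 465 genes higher (5.98%) and 424 lower (5.45%) in KO. All 3 KO libraries lay above all WT libraries for 649 genes (8.35%) and below them for 679 (8.74%). The number of calls varied with the libraries kept. Leaving out WT replicate 1, 2 or 3 gave 1, 21 and 38 calls, and leaving out KO replicate 1, 2 or 3 gave 38, 5 and 1. Rpl41 passed in each of these 6 fits, and it was the only gene called without WT replicate 1 or without KO replicate 3. It was also the only gene called when counts were summed over the transcripts of a gene, where the adjusted p of the other 6 was 0.364 to 0.540.

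**Figure D1:**
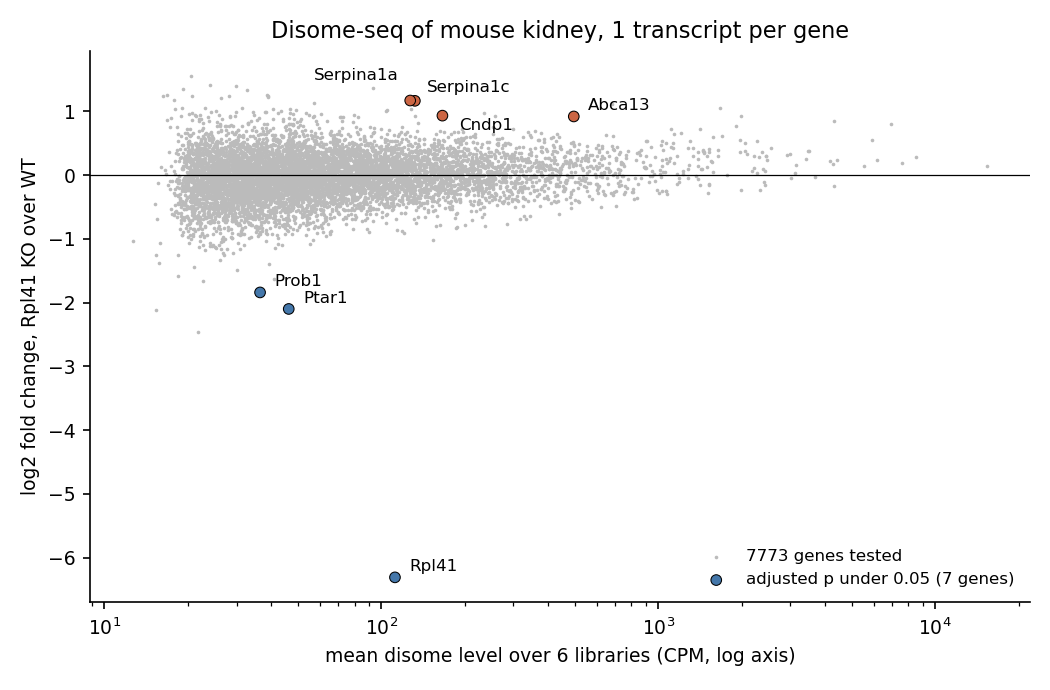
Log2 fold change of Rpl41 KO over WT (vertical axis) against the mean disome level of the 6 libraries in CPM (horizontal log axis) for 7773 genes. Grey points are all genes tested, and the 7 larger points are those with an adjusted p under 0.05, 4 higher (orange) and 3 lower (blue) in KO. Rpl41, at -6.31, stands apart from every other gene.

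The gene with the firmest rise was Abca13, which encodes a very large ATP-binding cassette transporter of 5034 residues (chr11:9191942-9684259). Its disome level was 321, 333 and 374 CPM in WT libraries and 565, 655 and 724 CPM in KO libraries, so that the genotypes did not overlap. It rose by 0.92 on the log2 scale (SE 0.16, adjusted p = 0.0178), and its Ribo-seq log2 fold change was 1.2 (adjusted p = 0.00973) and its RNA-seq value -1.07 (adjusted p = 0.220). The call was lost without WT replicate 1 (adjusted p = 0.148), KO replicate 2 (0.0545) or KO replicate 3 (0.208).

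Alpha-1-antitrypsin, a secreted inhibitor of serine proteases, is encoded in the mouse by a cluster of near-identical genes on chromosome 12, and 2 of them were called. Serpina1a (chr12:103853589-103863562) had 78.8, 58.7 and 116 CPM in WT and 183, 145 and 211 CPM in KO, a rise of 1.17 on the log2 scale (SE 0.23, adjusted p = 0.0487). Serpina1c (chr12:103894926-103904887) had 76.0, 55.9 and 112 CPM in WT and 181, 138 and 199 CPM in KO, also a rise of 1.17 (SE 0.23, adjusted p = 0.0487). These are not independent results, and Serpina1c overlaps a gene on the opposite strand over 429 of its 1361 bases. Of the 60-base windows of the Serpina1a and Serpina1c transcripts, 63.3% and 70.9% also occur in transcripts of 5 other genes. Serpina1d, which shares 45.2% of its windows, had 172, 126 and 251 CPM in WT and 350, 288 and 358 CPM in KO and missed the threshold (log2 fold change 0.92, adjusted p = 0.0648). Both calls were lost without WT replicate 1 (adjusted p = 0.148), WT replicate 2 (0.0821) or KO replicate 3 (0.208). The Ribo-seq log2 fold changes of Serpina1a and Serpina1c were 0.83 and 0.81 (edgeR adjusted p = 0.0115 and 0.0128). Their RNA-seq values were 1.06 and 1.27 (adjusted p = 0.218 each).

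Cndp1 encodes carnosine dipeptidase, which cleaves histidine-containing dipeptides (chr18:84610509-84650095). It had 130, 102 and 109 CPM in WT and 214, 217 and 227 CPM in KO. It rose by 0.93 (SE 0.19, adjusted p = 0.0487), and the KO values were tightly grouped and all above WT. A 390-base stretch of its 2829-base transcript overlaps a gene on the opposite strand, and whether reads were counted by strand is not given in the sources used here. Without WT replicate 1 or 2 or KO replicate 2 or 3, its adjusted p was 0.148, 0.0821, 0.129 and 0.208, and with library size alone it was 0.0684. Cndp1 had a Ribo-seq log2 fold change of 0.51 (edgeR adjusted p = 0.0477) and an RNA-seq value of 0.24 (adjusted p = 0.649).

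Apart from Rpl41, 2 genes fell. Prob1, proline-rich basic protein 1 (chr18:35650351-35655238), had 59.1, 67.1 and 44.9 CPM in WT and 15.1, 20.7 and 11.9 CPM in KO. It fell by 1.84 on the log2 scale (SE 0.32, adjusted p = 0.0211), on 12 to 48 reads per WT library and 3 to 9 per KO library. Its Ribo-seq log2 fold change was 0.09 (adjusted p = 0.780) and its RNA-seq log2 fold change 0.06 (adjusted p = 0.884). The call was lost without WT replicate 1 (adjusted p = 0.104) or KO replicate 3 (0.208), and with limma voom (0.0525). Ptar1, a prenyltransferase subunit (chr19:23687429-23731668), fell by 2.10 (SE 0.42, adjusted p = 0.0487), but its libraries overlapped: 91.5, 116 and 15.0 CPM in WT against 22.7, 20.7 and 11.9 CPM in KO. WT replicate 3, with 4 reads, lay within the KO range, so the fall rests on WT replicates 1 and 2. Its call was lost without KO replicate 2 (adjusted p = 0.169) or KO replicate 3 (0.208), and without WT replicate 1 or 2 it had too few reads to be tested. With counts summed over its transcripts its log2 fold change was -0.94 (adjusted p = 0.540), and its adjusted p was 0.190 with limma voom and 0.0806 with noncoding genes added. Its Ribo-seq log2 fold change was -0.52 (edgeR adjusted p = 0.174) and its RNA-seq value -0.06 (adjusted p = 0.871). Ptar1 is outside the rule for named genes and was chosen after its values were seen, as 1 of the 7.

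**Figure D2:**
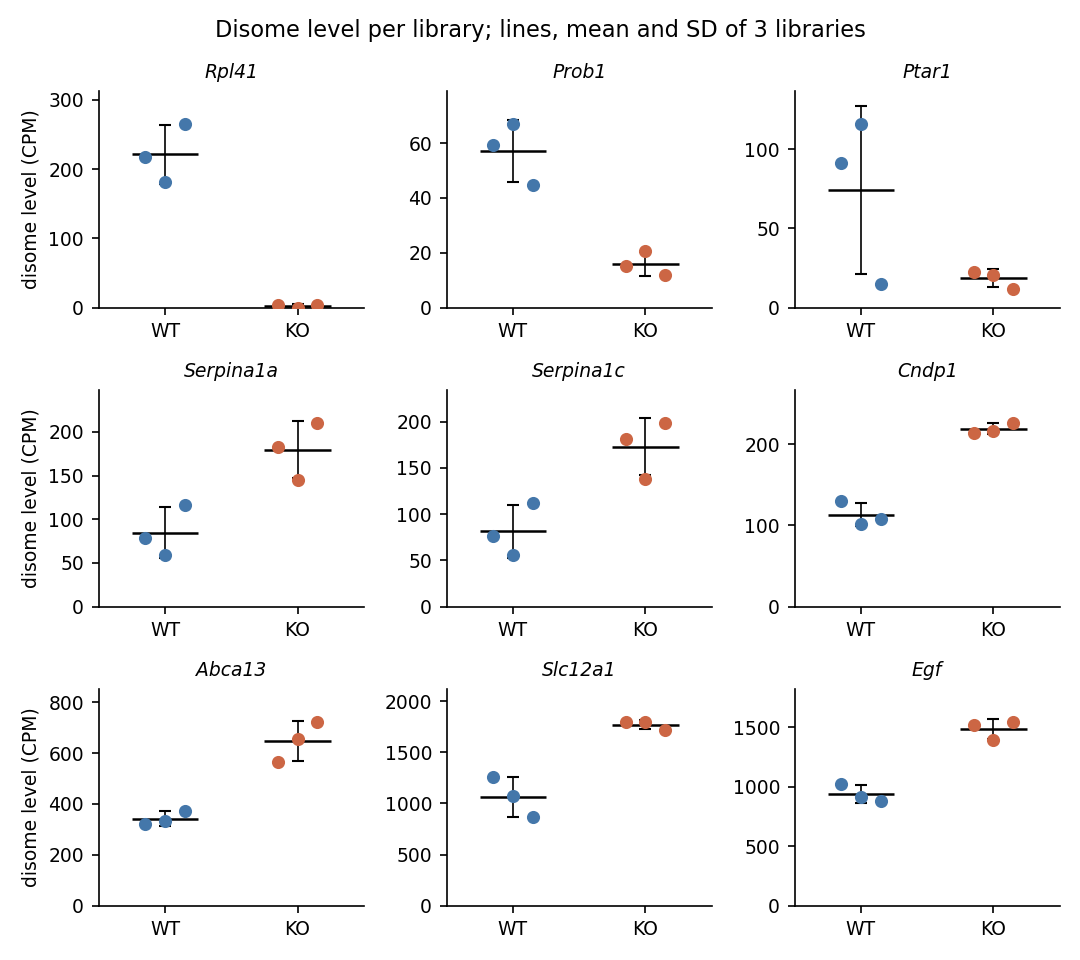
Disome level in CPM (vertical axis, from 0) in each of 3 WT (blue) and 3 KO (orange) libraries for the 7 called genes and for Slc12a1 and Egf, which missed the threshold; lines give the mean and SD of 3 libraries. KO points lie wholly to 1 side of WT points in all panels but that of Ptar1, where WT replicate 3 is at 15.0 CPM. Apart from Rpl41 and Ptar1, the genes shown were named on condition that their libraries did not overlap.

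Markers of the thick ascending limb, the diluting segment of the nephron, included 2 genes that narrowly missed the threshold, Slc12a1 and Egf. Slc12a1, the sodium-potassium-chloride cotransporter of the segment, had 1258, 1071 and 864 CPM in WT and 1793, 1801 and 1718 CPM in KO, a log2 fold change of 0.73 that narrowly missed the threshold (adjusted p = 0.0503). Egf, a growth factor precursor made in the same and the next segment, had 1026, 914 and 876 CPM in WT and 1518, 1390 and 1547 CPM in KO (log2 fold change 0.66, adjusted p = 0.0520). Umod, uromodulin, had 1851, 1447 and 1497 CPM in WT and 2445, 2222 and 2346 CPM in KO (log2 fold change 0.55, adjusted p = 0.115). In each of these 3 genes every KO library was above every WT library, as in 8.35% of all genes tested. For Slc12a1 and Egf this was required by the rule that named genes short of the threshold. Kcnj1, Cldn10 and Ppp1r1a, the other 3 markers of the segment with enough reads, had log2 fold changes of 0.10, 0.03 and -0.09 and overlapping libraries. In bulk tissue, more cells of a type and more reads per cell cannot be told apart. The RNA-seq log2 fold changes of Slc12a1 and Egf were -0.21 and -0.83, and their Ribo-seq values were 0.82 and 0.91.

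Other genes higher in KO without passing were Dnase1, a secreted nuclease (log2 fold change 1.12, adjusted p = 0.0513), Bcat1, a branched-chain aminotransferase (1.37, adjusted p = 0.0520), and Utp20, a component of the complex that processes small-subunit rRNA (0.93, adjusted p = 0.0520). Pck1, which commits carbon to gluconeogenesis, was among the most heavily loaded mRNAs, with 2701, 2193 and 4385 CPM in WT and 4562, 5891 and 6131 CPM in KO (0.84, adjusted p = 0.0602). The Ribo-seq log2 fold changes of Dnase1, Bcat1, Utp20 and Pck1 were 0.90, 0.77, 0.86 and 0.65. Zbtb7a, a transcriptional repressor, had a disome log2 fold change of 1.13 (adjusted p = 0.0602) and a Ribo-seq value of 0.06. The libraries of these 5 genes did not overlap between genotypes, which was a condition for naming them. All KO libraries lay above all WT libraries for 8.35% of the genes tested. Egf, Dnase1 and Bcat1 overlap genes on the opposite strand, by up to 607, 239 and 250 bases.

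Genes lower in KO that missed the threshold were led by Pcyt2, an enzyme of phosphatidylethanolamine synthesis, with 346, 387 and 344 CPM in WT and 212, 214 and 207 CPM in KO (log2 fold change -0.77, adjusted p = 0.0520). Most of the others encode short proteins. Uqcr10 and Ndufa1, small subunits of respiratory complexes III and I, had log2 fold changes of -0.90 (adjusted p = 0.111) and -0.77 (adjusted p = 0.115). Fdx1, an iron-sulfur electron carrier, was at -0.87 (adjusted p = 0.119) and Gsta3, a glutathione transferase, at -0.81 (adjusted p = 0.0987). Arhgdia was at -0.70 (adjusted p = 0.119). The dynein light chain genes Dynlt1a, Dynlt1b and Dynlt1f had nearly the same values, -0.95, -0.92 and -0.89, and share 55.7%, 83.0% and 91.6% of their 60-base windows with other genes. Hip1r, a clathrin adaptor of 1068 residues, was at -0.89 (adjusted p = 0.115). It overlaps Vps37b on the opposite strand over 918 bases.

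The difference between genotypes varied with protein length across the transcriptome. The median log2 fold change was -0.35 for the 151 genes encoding at most 100 residues, -0.23 for 800 genes with 101 to 200 residues and -0.15 for 912 genes with 201 to 300. It was 0.02 for 1759 genes with 401 to 600 residues, 0.10 for 1095 genes with 801 to 1200 and 0.16 for 288 genes with over 2000, against -0.01 over all genes tested. Among the 5% of genes with the shortest proteins (394 genes, at most 131 residues), 94 were lower at an unadjusted p under 0.05 and 2 higher, and 326 of 394 had a negative value. Among the 5% with the longest proteins (389 genes, at least 1826 residues), 60 were higher and 12 lower at that p, and 283 of 389 had a positive value. Over all genes tested, 5.98% were higher and 5.45% lower at that p. Of the shortest set only Rpl41 was called and of the longest set only Abca13.

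**Figure D3:**
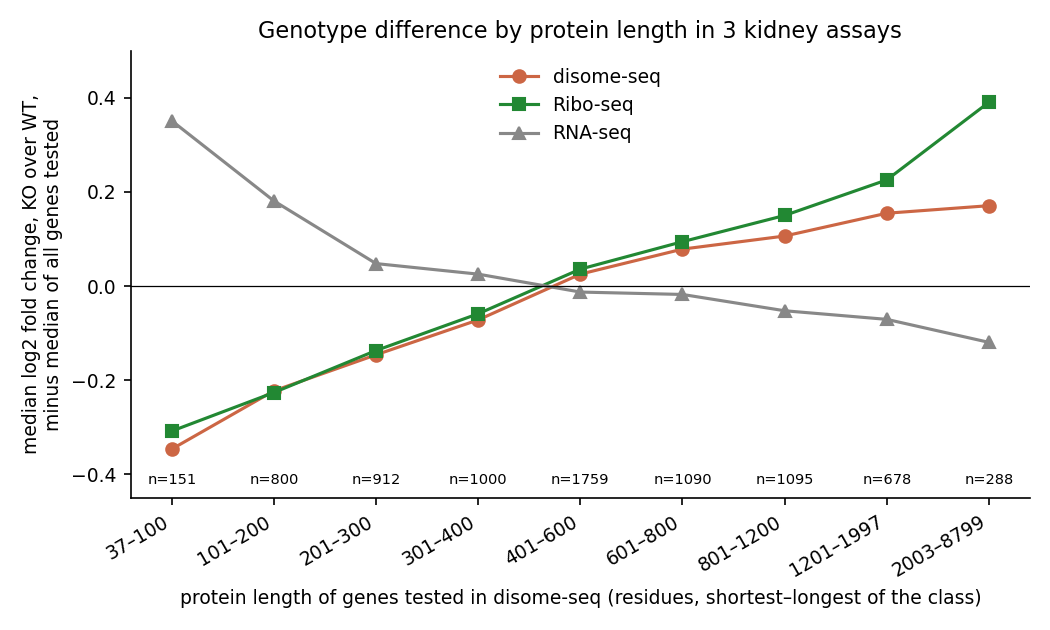
Median log2 fold change of Rpl41 KO over WT minus the median of all genes tested (vertical axis), for genes tested in disome-seq grouped by protein length in residues (horizontal axis, 9 classes with gene numbers at the foot). Disome-seq (orange) and Ribo-seq (green) climb from short to long proteins and RNA-seq (grey) declines from short to long.

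The shift of the shortest set, relative to all genes, was -0.30, and the shift of the longest set was 0.18. Per library, the median log2 CPM was taken relative to the mean of the 6 libraries and to all genes tested. For the shortest set it was 0.12, 0.01 and 0.29 in WT and -0.09, -0.24 and -0.15 in KO, so the genotypes did not overlap. For the longest set it was -0.11, 0.09 and -0.32 in WT and -0.08, 0.24 and 0.13 in KO. Here the genotypes overlapped, with WT replicate 2 above KO replicate 1. Without KO replicate 2 the shift of the longest set was 0.08 and without KO replicate 1 or WT replicate 2 it was 0.28, while that of the shortest set stayed between -0.375 and -0.25 over the 6 libraries left out. WT replicate 3 had both the highest short-protein and the lowest long-protein value, together with the largest share of mitochondrial rRNA (5.41%, against 2.53% to 4.84% in the other 5). With this library left out the shifts were 0.12 for the longest and -0.25 for the shortest set.

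**Figure D4:**
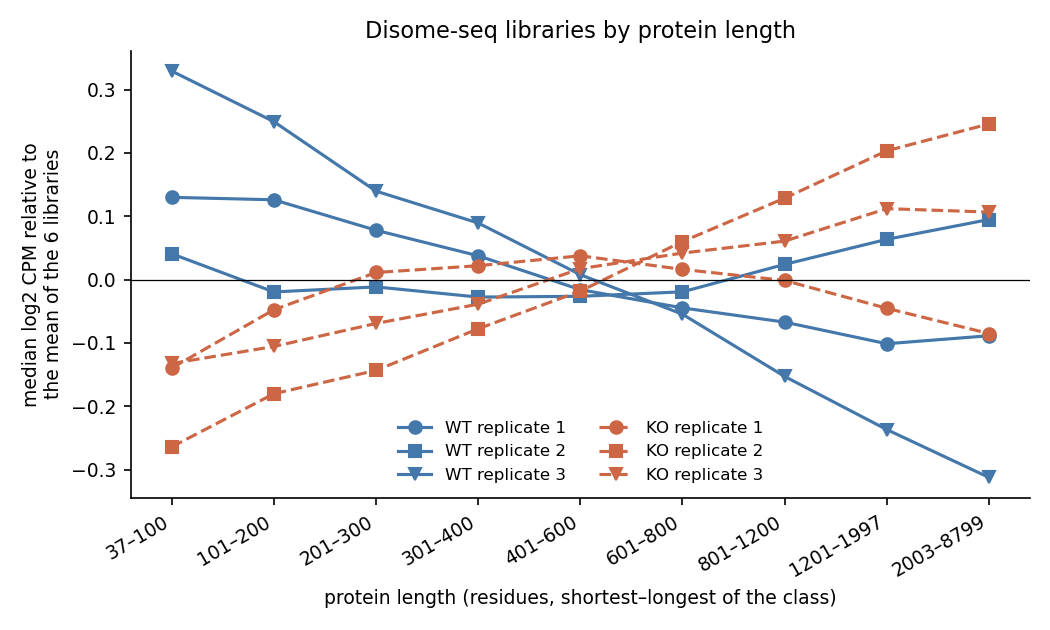
Median log2 CPM of each disome-seq library relative to the mean of the 6 libraries (vertical axis) by protein length in residues (horizontal axis). The same median over all genes tested was subtracted in each library. WT libraries (blue) lie above KO libraries (orange) for the shortest class, whereas for the longest class WT replicate 2 lies among the KO libraries and KO replicate 1 among the WT libraries.

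The same classes were set beside the other kidney assays. In Ribo-seq the shortest set shifted by -0.29 and the longest by 0.35, and in RNA-seq the shortest shifted by 0.32 and the longest by -0.11. Across 7758 genes the disome and Ribo-seq log2 fold changes had a Pearson's r of 0.48 (Spearman's rho 0.46), and across 7635 genes the disome and RNA-seq values had an r of 0.05 (rho -0.03). Genes are not independent replicates, and the assays share the annotation and possibly the mice. Ribo-seq, from libraries of 11036643 to 42452425 counts, called 1434 of 13439 genes (10.7%), 878 higher and 556 lower in KO, and RNA-seq called 1 of 13906, Rpl41. The 3 longest proteins illustrate how the assays diverged at the far end. Syne1 and Dst, linkers of the cytoskeleton, and Macf1, a microtubule-actin crosslinker, had disome log2 fold changes of -0.32, -0.01 and 0.09, none past the threshold, and Ribo-seq values of 0.46, 0.66 and 0.64. Syne1 had 187, 218 and 89.8 CPM in WT and 79.4, 194 and 155 CPM in KO.

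Runs of proline and of basic residues, known to slow ribosomes, were compared within length classes, as description. Genes with a run of at least 3 prolines had a median log2 fold change of 0.03 (2031 genes) against -0.02 without one (5742 genes). Their proteins were longer, with medians of 806 and 442 residues. Over 600 residues the medians were 0.08 with and 0.13 without a proline run, and over 300 and up to 600 residues -0.03 and -0.01. For a run of at least 4 lysines or arginines the medians over 600 residues were 0.12 with and 0.10 without, and at most 300 residues -0.17 and -0.21. Neither feature set genes apart by more than 0.05 within a length class.

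The proteins of the mitochondrial genome, made inside mitochondria by ribosomes that hold no Rpl41, gave the highest median of any list. All 13 genes had a positive log2 fold change, with a median of 0.56, 8 were higher at an unadjusted p under 0.05 and 0 passed the adjusted threshold. The share of all genes tested that was higher at that unadjusted p was 5.98%. The mt-Co1 gene, for the catalytic subunit of cytochrome oxidase, had 5091, 4654 and 5377 CPM in WT and 4915, 10068 and 11395 CPM in KO (log2 fold change 0.80, adjusted p = 0.111). The higher values were those of 2 libraries. KO replicates 2 and 3 had 3.17% and 3.35% of their reads on these genes, and KO replicate 1 had 1.65%, below the 1.77% to 1.95% of the WT libraries. Only mt-Nd3, a complex I subunit, had every KO library above WT, at 335, 266 and 284 CPM in WT and 338, 438 and 553 CPM in KO. In Ribo-seq the median of the 13 genes was -0.09. The list median ranged from 0.40 to 0.78 when single libraries were left out.

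Nuclear-encoded subunits of the respiratory chain leaned the other way. Of 37 complex I subunits, 35 had a negative value (median -0.36), 16 were lower and 1 higher at an unadjusted p under 0.05, and 0 were called. Their median per library was 0.15, 0.01 and 0.30 in WT and -0.13, -0.31 and -0.18 in KO. Ndufs1, the largest subunit, was 1 of the 2 above 0, with 424, 424 and 397 CPM in WT and 605, 593 and 529 CPM in KO (log2 fold change 0.47, adjusted p = 0.188). Ndufa4, placed in this list although its protein is now assigned to complex IV, was at -0.25. Of 38 subunits of complexes III and IV and ATP synthase, 34 were negative (median -0.28), 14 were lower at that p and 0 higher. At that p, 5.45% of all genes tested were lower and 5.98% higher. Atp5a1 and Atp5b, of the ATP synthase head, were at 0.16 and 0.03, and Atp5g3, of the membrane ring, at -0.28. These are short proteins, with median lengths of 149 and 120.5 residues. After the median of each gene's length class was subtracted, the list medians were -0.12 and -0.03. For the mitochondrial genome the same subtraction left 0.62.

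Genes of translation itself had list medians from -0.17 to 0.04, against -0.01 over all genes tested. The cytosolic ribosomal proteins had medians of -0.11 (46 of the large subunit) and -0.08 (32 of the small subunit), with 0 called and, at an unadjusted p under 0.05, 2 higher and 3 lower in the large and 0 higher and 2 lower in the small subunit. Libraries overlapped for their leading members Rpl4 (0.59, adjusted p = 0.228), Rpl19, Rps25 and Rack1. Rpl41 was not counted among these 46. Once length was subtracted the medians were 0.08 and 0.17. Of 29 ribosome collision and quality control factors, 0 passed, 2 were higher and 1 lower at an unadjusted p under 0.05, and the median was 0.01. Vcp, the segregase that extracts stalled chains, had 622, 579 and 595 CPM in WT and 839, 747 and 779 CPM in KO (log2 fold change 0.40, adjusted p = 0.256). Ltn1, the ligase that tags them, was at 0.66 (adjusted p = 0.202) and Edf1, a collision sensor, at -0.56 (adjusted p = 0.205), both without overlap. These were the highest and lowest values of the list. Of the 29, 4 lay wholly above WT in KO and 2 wholly below, against 8.35% and 8.74% of all genes tested. The sensor Zfp598 was at 0.01, and the disome-splitting helicase subunits Ascc2 and Ascc3 were at -0.01 and 0.35 with overlapping libraries. Initiation factors had a median of 0.04 (37 genes, among them Eif4a2 at -0.01 and Eif4g3 at 0.20). Elongation and termination factors had one of -0.17 (10 genes), although Eef1a1 and Eef2, which bring in transfer RNA and drive translocation, were at 0.43 and 0.39 (adjusted p = 0.370 and 0.359) and Tpt1 at -0.21. At an unadjusted p under 0.05, 1 initiation factor was higher and 2 lower. Of the elongation and termination factors 2 were higher and 2 lower at that p. In both lists 0 were called. For comparison, 5.98% of all genes tested were higher and 5.45% lower at an unadjusted p under 0.05. With length subtracted, the medians of collision, of initiation, and of elongation and termination factors were -0.03, 0.08 and 0.01.

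mRNAs with a described pause, frameshift or regulatory upstream frame were looked at because queued ribosomes have been reported on such messages. None of 16 passed, 3 were lower at an unadjusted p under 0.05 and the median was -0.11. Those 3 encode selenoproteins, which recode a stop codon: Selenop had 543, 574 and 632 CPM in WT and 391, 443 and 497 CPM in KO (log2 fold change -0.40, adjusted p = 0.293), and Gpx1 and Gpx4 were at -0.37 and -0.40. Gpx3, the most loaded selenoprotein message, was at -0.17 with overlapping libraries. Xbp1, whose nascent chain arrests its own ribosome, had 303, 180 and 258 CPM in WT and 163, 228 and 207 CPM in KO, and the genotypes overlapped (log2 fold change -0.31, adjusted p = 0.585). Integrated stress response targets had a median of -0.12 over 18 genes (Shmt2 at 0.13, Slc3a2 at 0.04, Sars at 0.07), and p53 targets one of -0.22 over 10 (Rps27l at -0.29, Mdm2 at -0.33, Sesn2 at -0.34). None was called, and at an unadjusted p under 0.05 there were 1 higher and 1 lower in the first list and 0 in the second. Of all genes tested, 5.98% were higher and 5.45% lower at that p. With the median of each gene's length class subtracted, the medians of the pause, stress response and p53 lists were 0.01, 0.025 and -0.08.

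Other genes that the study measured did not pass. Nup98, a nuclear pore protein, had 99.9, 105 and 63.6 CPM in WT and 129, 141 and 143 CPM in KO (log2 fold change 0.54, adjusted p = 0.289). Ahnak, a giant scaffold protein, was at 0.23 in disomes and 0.98 in Ribo-seq. Cstb, a protease inhibitor, Cisd1, an iron-sulfur protein, and Cycs, cytochrome c, were at -0.46, -0.45 and -0.27 (adjusted p = 0.330, 0.381 and 0.553), and Vamp8 at -0.06. Hc, complement component 5, had 0 reads in all 6 libraries.

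Endoplasmic reticulum chaperones and translocon subunits had a median of -0.09 (43 genes) and proteasome subunits one of -0.21 (34 genes, 28 negative). Herpud1, Calr and Hspa5 were at 0.45, -0.13 and -0.08, and Psmb1 and Psmd1 at -0.28 and 0.24. Values were positive for 12 of 16 collagen chains (median 0.17) and 25 of 30 giant cytoskeletal and motor proteins (median 0.19). These medians rested on single libraries, and were 0.01 and 0.05 without KO replicate 2 and 0.41 and 0.37 without KO replicate 1. Within these, Col4a3, Col4a4 and Col4a1 of the glomerular and tubular basement membrane were at -0.05, 0.07 and -0.01, and Syne2, Dst and Myh9 at 0.50, -0.01 and 0.27. After the median of each gene's length class was subtracted, the collagen and giant protein medians were 0.02 and 0.03. The endoplasmic reticulum and proteasome medians became -0.03 and -0.11. No member of these 4 lists was called. At an unadjusted p under 0.05 the numbers higher and lower were 1 and 3 for the endoplasmic reticulum, 0 and 4 for the proteasome, 2 and 0 for collagens and 8 and 2 for the giant proteins. Shares over all genes tested were 5.98% higher and 5.45% lower.

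Cell type markers differed by segment. Proximal tubule markers had a median of 0.24, with 11 of 28 higher and 0 lower at an unadjusted p under 0.05, against 5.98% and 5.45% of all genes tested. Their summed level was 53624 to 69096 CPM in WT and 67161 to 75117 CPM in KO. Acsm2, a medium-chain acyl-CoA synthetase, had 4824, 4421 and 5141 CPM in WT and 7087, 6545 and 7518 CPM in KO (log2 fold change 0.56, adjusted p = 0.0802), and Kap was at 0.15. Thick ascending limb markers summed to 3325 to 4357 CPM in WT and 5303 to 5729 CPM in KO. Podocyte markers were few and low, with 202 to 212 CPM summed in WT and 61.3 to 132 CPM in KO. Nphs1, nephrin of the filtration slit, held 24, 26 and 12 reads in WT and 7, 1 and 0 in KO (log2 fold change -2.45, adjusted p = 0.0520; chosen after its values were seen), and Podxl, Cdkn1c and Synpo were at -0.40, -0.66 and -0.39. Distal tubule and collecting duct markers had a median of -0.12 (15 genes; Klk1, Slc12a3 and Calb1 at 0.28, 0.12 and -0.26). Endothelial markers had one of 0.15 (9 genes), with Kdr and Flt1, the receptors for vascular endothelial growth factor, at 0.94 and 0.91 (adjusted p = 0.15 and 0.119) and Emcn at 0.15. They did not move as one: 6 were positive and 3 negative, the lowest at -1.06. At an unadjusted p under 0.05, 2 endothelial markers were higher and 1 lower. The part of these cell types in the genotype differences above was not tested.

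The hemoglobin genes Hbb-bs, Hbb-bt, Hba-a2 and Hba-a1 were at -0.69, -0.68, -0.59 and -0.67, with every KO library below every WT library and adjusted p between 0.119 and 0.176. Every KO library lay below every WT library for 8.74% of all genes tested. Hbb-bs had 424, 380 and 415 CPM in WT and 261, 173 and 338 CPM in KO. Cd74, the invariant chain of antigen-presenting cells, went the other way, with 229, 154 and 180 CPM in WT and 376, 256 and 326 CPM in KO (log2 fold change 0.76, adjusted p = 0.115). These were the 5 of 15 blood and immune markers with enough reads, and their median was -0.67. Their median length was 147 residues, and with the median of each gene's length class subtracted the list median was -0.44. Paralogous globin genes share reads and are not independent.

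Fatty acid oxidation genes had a median of 0.01 over 25 genes, with 6 higher and 1 lower at an unadjusted p under 0.05. The peroxisomal enzyme Ehhadh was at 0.41 without overlap (adjusted p = 0.202), and the mitochondrial Acadm was at 0.14. Male-biased kidney genes had a median of 0.16 over 8 genes, with Cyp4b1 at 0.38 and Slc7a13 at 0.14. Kidney injury and repair genes had one of 0.29 over 6 genes. Clu, clusterin, had 215, 200 and 180 CPM in WT and 302, 247 and 322 CPM in KO (log2 fold change 0.53, adjusted p = 0.213), and Spp1 and Krt8 were at 0.23 and 0.16. No member of these 3 lists was called, and at an unadjusted p under 0.05 there were 3 male-biased and 2 injury genes higher and 0 lower. Among all genes tested, 5.98% were higher and 5.45% lower at that p.

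**Figure D5:**
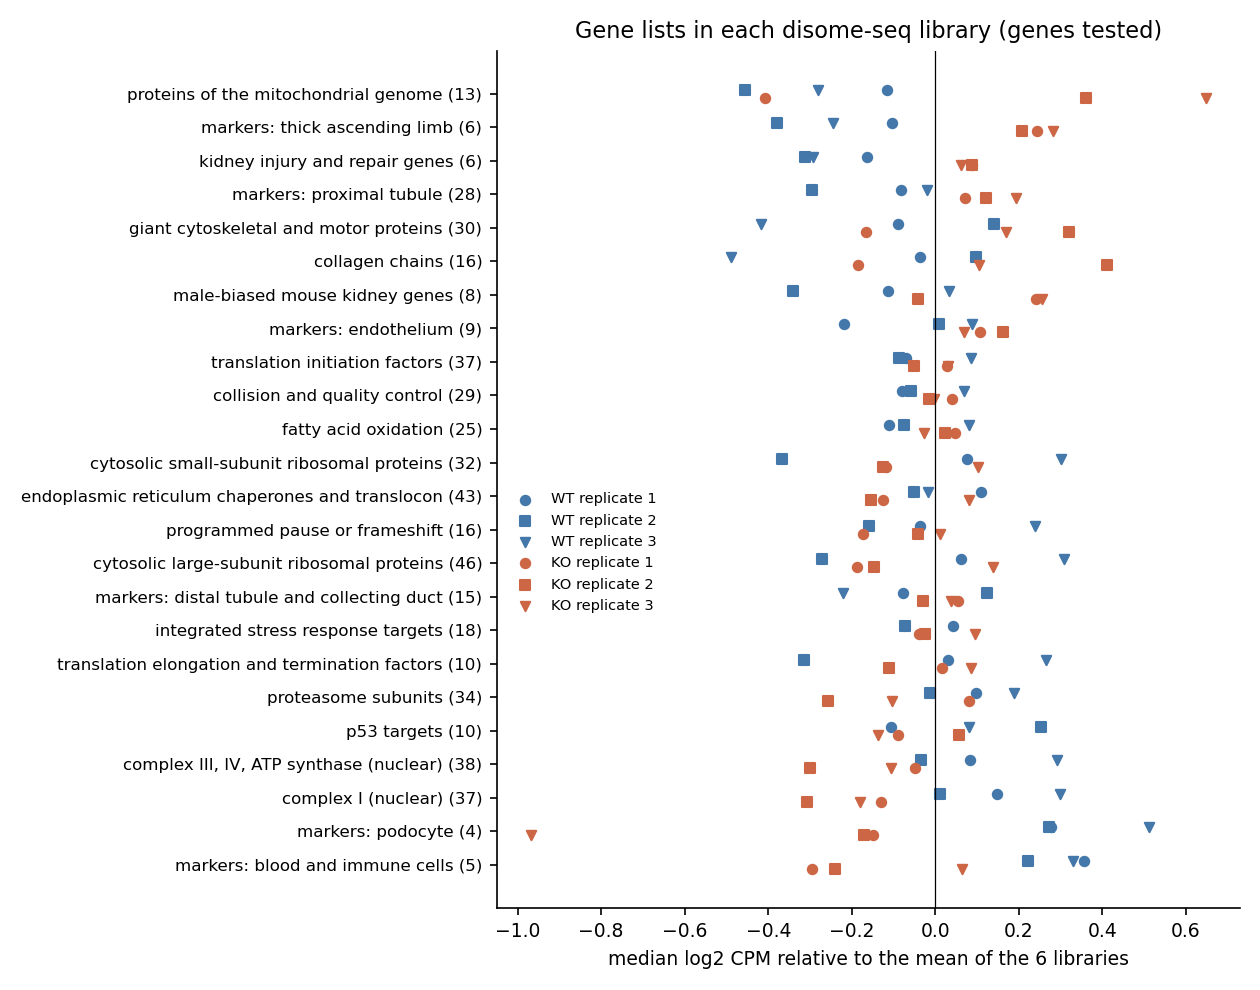
Median log2 CPM of each gene list relative to the mean of the 6 libraries (horizontal axis) in 3 WT (blue) and 3 KO (orange) libraries, with the number of genes tested in brackets and lists ordered by median log2 fold change. The same median over all genes tested was subtracted in each library. KO replicates 2 and 3 stand apart for the mitochondrial genome, whereas all 3 KO libraries lie above WT for thick ascending limb and proximal tubule markers and below WT for complex I.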

How the data were processed

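Raw counts per transcript were deposited by the authors without normalization. Per the labels and the study's methods, RNase I-treated kidney lysates were pelleted through sucrose, fragments of 50 to 80 nt were selected, rRNA was depleted, adapters were trimmed with cutadapt, reads were aligned with STAR to mm10 with multimapping allowed, and transcripts were counted with featureCounts (Subread). Use of strand and tool versions are not given in the sources used here.

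Transcript identifiers were joined to GENCODE M21 (GRCm38), where 141374 of 142604 matched, and the transcript with the longest protein was kept for each of 22484 coding genes. The 3 Rpl41 KO and 3 WT libraries were compared with edgeR 4.0.16 in R 4.3.3 (filterByExpr, TMM, quasi-likelihood test, genotype as the only term, Benjamini-Hochberg adjustment over 7773 genes, threshold 0.05). CPM uses the TMM-scaled library sizes. Kidney Ribo-seq and RNA-seq were fitted apart in the same way. Between-library variation of a gene (biological coefficient of variation) was 13.4%. Same-numbered libraries were not taken as pairs. The fit was tested on simulated data.

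Proteins were translated from the GENCODE coding sequences, since no protein table was given. Lists of genes were described by counts and medians, without a test. The text names the genes the study measured, up to 12 genes per direction that were called or had the smallest unadjusted p among genes whose genotypes did not overlap and whose mean CPM was at or above the median, the 10 with the most reads per kilobase, the called and the 3 highest members of each list, and the 3 longest and 3 shortest proteins. Further list members were named outside this rule, among them collision factors, thick ascending limb markers and blood markers. The members and lists were chosen with earlier results of these data known. Alternatives used library size alone, DESeq2 1.42.0, limma 3.58.1 voom, other filters, other transcripts per gene, a replicate block and each library left out. A second table, with human transcripts, holds 28 value columns of no sample and was not used here. A few genes that this rule names are not reported here.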

Additional observations from a re-analysis of the deposited data

Results flagged for a closer look

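Reads on noncoding annotations, which the comparison of coding genes leaves out, also differed between genotypes. With these added to the fit, 22 of 1737 were lower in KO at an adjusted p under 0.05 by edgeR, under 14 gene symbols. The copies of Rpl41 had log2 fold changes of -6.08 (Gm10736), -6.04 (Gm10180) and -6.26 (Gm3699), and the lincRNA Gm10076 one of -6.11. These values depend on the prior count, since KO libraries held 0 to 2 reads.

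The other 18 were annotations of small nucleolar RNAs, which guide the processing and modification of rRNA. They were led by U3, which is needed to process the precursor of the small-subunit rRNA. The sequence of Rnu3b1 (GRCm38, chr11:87443237-87443452, plus strand) is given because reads on it were counted for each near-identical copy.
Rnu3b1, 5′ to 3′: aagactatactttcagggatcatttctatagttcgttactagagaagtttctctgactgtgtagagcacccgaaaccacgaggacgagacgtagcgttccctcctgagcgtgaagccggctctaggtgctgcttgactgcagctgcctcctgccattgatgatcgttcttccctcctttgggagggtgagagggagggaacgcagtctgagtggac
Rnu3b1 had 874, 1461 and 456 reads in WT and 132, 141 and 125 in KO, or 774, 1299 and 1050 CPM against 158, 208 and 311 CPM. Every KO library was below every WT library, with a log2 fold change of -2.23 (SE 0.24, adjusted p = 4.35e-05), and the Ribo-seq value was -1.98 (adjusted p = 0.0124). Rnu3b2, Rnu3b3 and Rnu3b4 repeat it at -2.23, -2.23 and -2.23, and all of their 60-base windows are shared. Rnu3a had 177, 375 and 53 reads in WT and 32, 21 and 19 in KO (-2.47, adjusted p = 6.62e-04). Gm23245 was at -1.65, Gm25617 at -1.69, Gm24826 at -1.53, Gm23927 at -1.53 and Gm24949 at -1.52. Gm24826 and Gm23927 share 100% of their 60-base windows with other genes, the Rnu3b copies among them, and Gm24949 shares 23.7%. Most of the called symbols are also annotated more than once at the same place. Counts of these annotations are therefore not counts of independent RNAs.

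Of 78 small nucleolar RNA annotations tested, 43 were lower and 1 higher at an unadjusted p under 0.05, with a median of -0.82. The 60 that were not called had a median of -0.45. Small nuclear RNAs, by comparison, had a median of 0.20 over 186 annotations, with 0 called. Other noncoding classes were lower too, so the fall was not confined to small nucleolar RNAs. Annotations of the class misc_RNA had a median of -0.45 (15 tested, 7 lower and 0 higher at that p). The 2 ribozyme annotations had a median of -0.95, and both were lower at that p. None of either class was called. Such RNAs are not translated, so these reads are not disomes, and whether they come from RNA that pelleted with ribosomes was not tested.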

How the results depend on the processing

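The shallowest library held 277276 reads on 1 transcript per gene, which limits what could be called. The number of genes past the adjusted threshold, 7 as reported, was 11 with library size alone, 19 with DESeq2 (19 higher and 0 lower, with the adjusted p of Rpl41 not available), 20 with limma voom, 96 without a filter on low counts, and 1 with at least 10 counts in every library, where Rpl41 could not be tested. It was 12 with every transcript tested, 1 with counts summed per gene, 16 with the transcript with the most reads, and 17 without the mitochondrial genome, an alternative chosen after seeing the data. Leaving out single libraries gave 1 to 38 calls. The cause of these differences was not tested. The 7 genes were all called again without the filter, with every transcript, with the transcript with the most reads, without the mitochondrial genome, without WT replicate 3 and without KO replicate 1. Of the 7, 6 were among the calls with library size alone and with noncoding genes added, 5 with voom, 4 without KO replicate 2, 3 without WT replicate 2, and 1 with DESeq2, with summed counts, with at least 10 counts, without WT replicate 1 and without KO replicate 3. DESeq2 gave no adjusted p for the other 6.

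The replicate block gave 18 calls, 14 higher and 4 lower, the 7 among them. Deviations from the group means correlated at 0.06, 0.14 and 0.03 between same-numbered libraries of WT and KO. Across genotypes, differently numbered libraries correlated at -0.10 to 0.04, and WT replicate 3 correlated best with KO replicate 1. These values are all small and cannot decide whether same-numbered libraries are pairs.

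Rpl41 kept its direction, at -6.96 to -5.72 over 16 alternatives, as did the shifts of the longest (0.08 to 0.28) and shortest proteins (-0.375 to -0.24) over 21. Pearson's r between disome and Ribo-seq log2 fold changes was 0.41 to 0.56 with libraries left out. The sign turned for Ascc2, at 0.0035 with DESeq2, 0.023 with voom, 0.0221 with summed counts and 0.0024 with noncoding genes added. With libraries left out Ascc2 was at -0.0797 to 0.0848 (0.0781 without KO replicate 1, highest without WT replicate 2) and Vamp8 at -0.149 to 0.0428 (positive without WT replicate 3). Of 25 list medians, 10 changed sign under some alternative. Blood and immune cells turned to 0.40 without the filter. The others and their ranges were distal tubule and collecting duct (-0.20 to 0.25), programmed pauses (-0.18 to 0.16), stress response (-0.21 to 0.10), small-subunit ribosomal proteins (-0.26 to 0.08), p53 (-0.34 to 0.04), elongation (-0.31 to 0.0025), initiation (-0.04 to 0.09), fatty acid oxidation (-0.07 to 0.12) and collision factors (-0.07 to 0.07). Library size alone moved the median of all genes from -0.01 to -0.09.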
